A study of Danio rerio with 3 samples.

Results

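Gene expression in vehicle-treated zebrafish embryos was compared between 24 and 12 hours post fertilisation (hpf), the span in which somites turn into muscle and most organs take shape. Only the green channel of 2-colour oligonucleotide arrays was used, which carried the vehicle RNA. A probe entered where its background-subtracted signal exceeded the mean plus 2 SD of the negative control spots at 24 or at 12 hpf, and the probes of a gene were averaged. This kept 34170 of 43603 probes and 20999 of 27216 gene names, and 19965 of these had a value for the change. The remaining 1034 were above the controls at 12 hpf but not at 24 hpf, at a normalized signal below 10.1, the lowest measured at 24 hpf. They have no fold. In all, 1692 such probes were left out, also from the averages of other genes. No probe above the controls at 24 hpf but not at 12 hpf was left out, so this rule acted in 1 direction only.

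The series set embryos exposed to the steroid hormone cortisol beside embryos exposed to its ethanol vehicle, in 3 array samples at 5, 12 and 24 hpf. Vehicle embryos at 24 hpf and at 12 hpf were wild type, were bathed from 0 to 2 hpf in fish water with 2 ml of ethanol per 1 L, and were then raised at 28.5 °C and fixed. Both stages thus carry the ethanol bath, and embryos without it were not analysed here. The fish came from a pet shop, and the sources used here give neither a strain nor the number of embryos per RNA sample. The cortisol embryos, set beside them once at the end, received 5 mg/L (13.8 µM) cortisol over the same hours. RNA of vehicle embryos was labelled with Cy3 and that of cortisol embryos with Cy5 on each array, with no dye swap.

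At 12 hpf a zebrafish embryo has finished gastrulation, is forming its first somites and has an eye field and a neural keel but no beating heart, blood flow or pigment. By 24 hpf it has a segmented trunk that twitches, a beating heart, circulating primitive red cells, a lens, early axon tracts and the first melanin. Muscle, red blood cells and lens fibres each fill themselves with a few abundant proteins, contractile proteins, globins and crystallins, so their genes mark differentiation in an embryo taken as a whole.

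The values are quantile-normalized green signals in array units, comparable between stages for 1 gene but not between genes. Signals had a 95th percentile of 1983 at 24 hpf and 4353 at 12 hpf before normalization, and 29668 and 31951 probes were above the controls at these stages. By their decimals, the values at 12 hpf may be a mean over 3 arrays and those at 24 hpf of a single array. The labels give 3 experiments and 1 experiment but do not state such a mean. The highest green intensity was 103492 at 12 hpf and 65304 at 24 hpf, and the reason was not tested. In either case each stage is 1 set of values, so no test or p-value is given. Stage and array cannot be told apart, and the spread between batches of embryos is unknown. Among probes of 1 gene measured at both stages, the log2 change varied with a pooled SD of 0.56 (5994 genes). Genes with a probe at a limit are not part of this SD, and the probes of some genes spread far more. The SD among replicate spots of 1 probe was 0.23 (25 probes). Of 1320 genes with more than 1 probe, measured at both stages and changed at least 2-fold, 97.2% changed the same way in every probe. These genes were selected on the mean of the same probes, so agreement in sign is in part built in. Where a probe was not above the controls at 1 stage, it was set to the lowest measured signal of that array, 10.1 at 24 hpf or 7.75 at 12 hpf. Changes that rest on such probes are limits and are written as "or more", "or below" or "at least". Just inside the threshold, the lowest signal kept was 9 at 24 hpf and 8.5 at 12 hpf, and just outside it the highest left out was 8.6 and 8.4.

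The labels' stages were set beside marker genes. Of 24 markers of later embryos (globins, crystallins, pigment enzymes, muscle and neuron genes), 23 had a value, 23 lay above 0 and 22 were at least 2-fold higher at 24 hpf, with a median log2 change of 4.87. Of 116 markers of earlier embryos, 105 had a value, 55 were at least 2-fold lower at 24 hpf and 2 were higher, with a median of -1.02. A marker above the controls at 24 hpf only, such as tnnt3a or cryaa, could not lie below 0 by the rule for limits. The lists of earlier markers were chosen with earlier results of these data known. These counts are therefore a description and not an independent check of the labels.

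Over all genes with a value, 2580 were at least 2-fold higher at 24 hpf (12.9%) and 2228 were at least 2-fold lower (11.2%). The median log2 change was -0.11, with quartiles of -0.59 and 0.48. Large changes ran mostly one way: 1100 genes were at least 4-fold higher against 248 lower, 248 were at least 16-fold higher (1.24%) against 6 lower, and 73 were at least 64-fold higher against 1 lower. The near balance at 2-fold depends on the scaling. Higher genes made up 53.7% of those past 2-fold here, 71.2% with arrays scaled to their 75th percentile, 74.98% with the ratios centred on their median, 64.7% with normexp background correction, 64.4% without background subtraction and 43.4% in the authors' processed green signal. Across these settings the median of all genes ranged from -0.26 to 0.11.

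The 3 stages together show where these genes started. Of the 2580 genes higher at 24 hpf, 67.2% were above the controls at 5 hpf, with median signals of 10.9, 17.7 and 101 at 5, 12 and 24 hpf. Of the 2228 lower genes, 94.3% were above the controls at 5 hpf, with medians of 177, 138 and 49.4 at the same stages. Genes that changed by less than 2-fold had medians of 67.1, 69.9 and 63.2, and 88.1% of them were above the controls at 5 hpf. Over all genes with a value that share was 86.1%. The calls themselves bear on these shares. A gene called lower must lie at least 2-fold above 10.1, the lowest signal at 24 hpf, when at 12 hpf. Of the higher genes, 521 were above the controls at 24 hpf but not at 12 hpf. The 248 genes at least 16-fold higher had medians of 8.68, 11.7 and 592, near the limit of measurement at both earlier stages. They were selected on their change from 12 hpf, so a low signal at 12 hpf is in part built in. Of these 248 genes, 79 belong to the lists described next, among them 29 of the contractile apparatus, 10 of the lens and 6 of red blood cells.

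**Figure D1:**
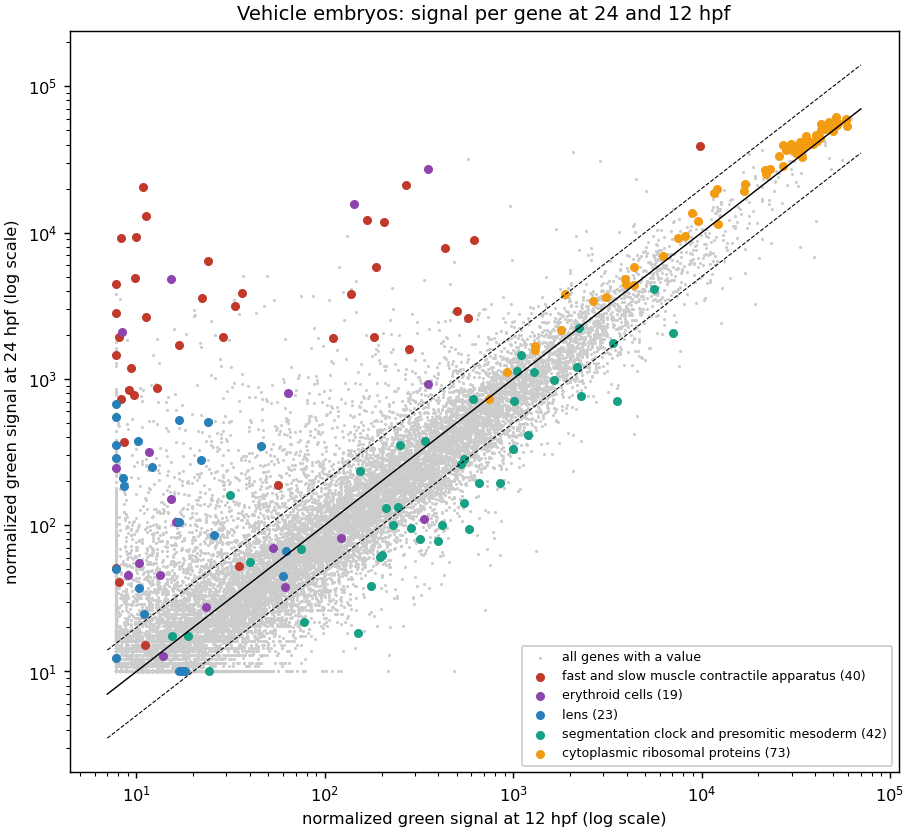
Normalized green signal of each gene with a value at 24 hpf (vertical axis) and at 12 hpf (horizontal axis), both on log scales, with 5 gene lists coloured; the solid line marks equal signal and the dashed lines 2-fold. Most genes of the contractile apparatus, red cells and lens lie above the upper dashed line, and some of red cells and lens lie below the solid line. Ribosomal protein genes lie along the solid line, and most presomitic genes lie on or below it. The column at the left edge and the row at the bottom are genes at the lowest measured signal.

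Gene lists for 37 tissues and processes held 1129 different genes, 1068 of them on the array and 1011 with a value. In 10 lists the median log2 change was above 1 and in 2 it was below -1. An embryo's RNA is a mixture, so more cells of a type and more RNA per cell cannot be told apart in any of them. The counts below are read beside the share of all genes past 2-fold, 12.9% higher and 11.2% lower. A limit is counted at its printed value, so a gene written as "or below" may be lower by 2-fold without being counted.

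**Figure D2:**
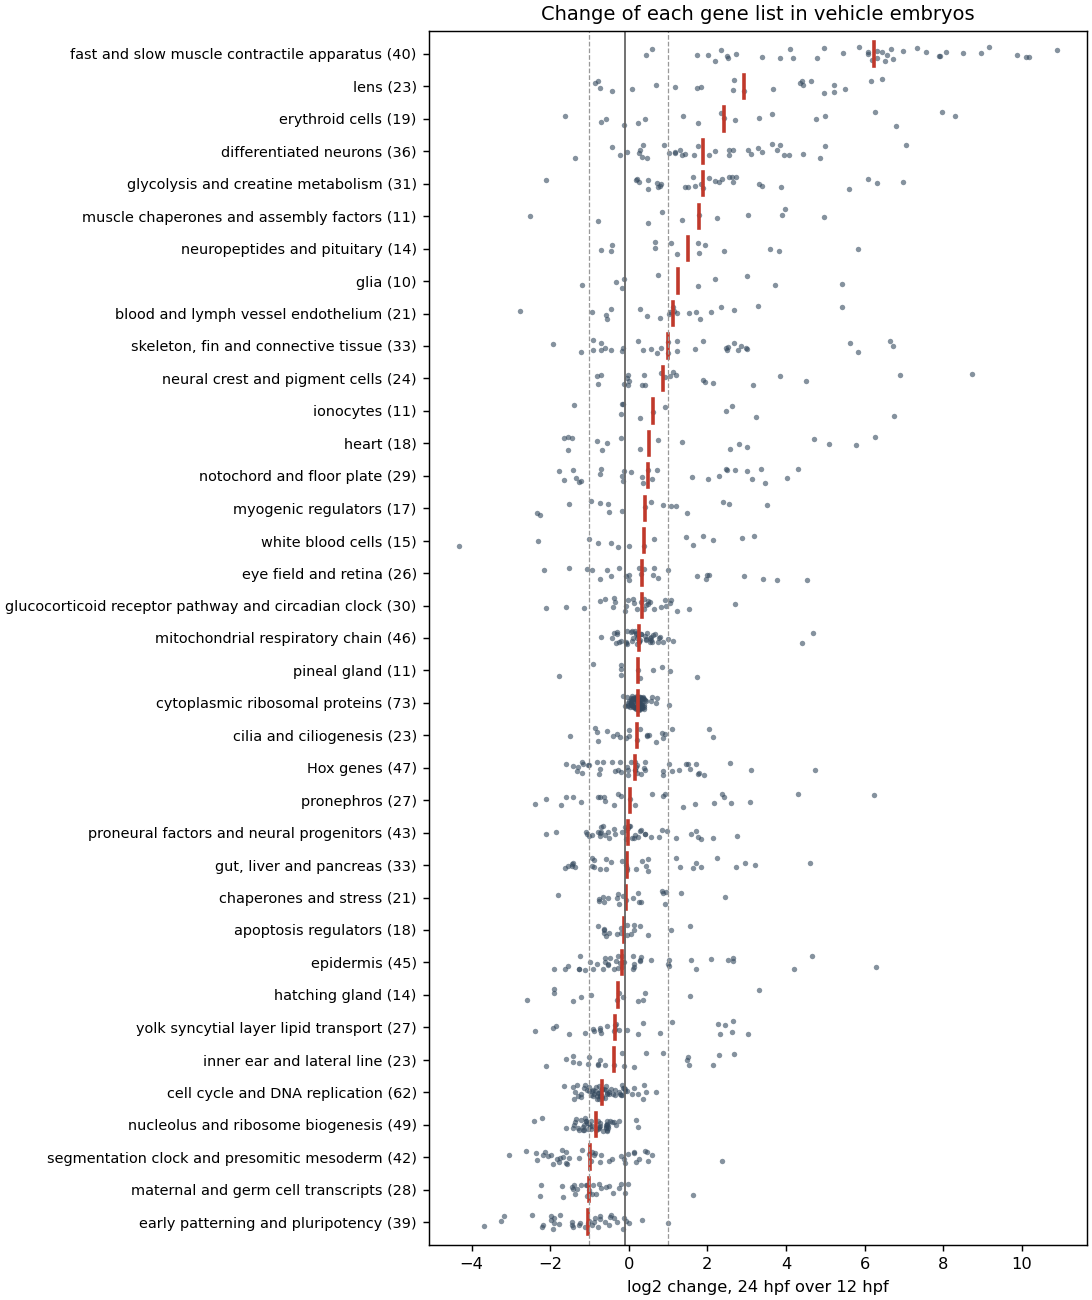
Log2 change from 12 to 24 hpf of every list member with a value (points, spread vertically for visibility) with the list median (red bar), lists ordered by median and the number of genes in brackets; the solid line is the median of all genes and the dashed lines mark 2-fold. The contractile apparatus stands highest with a median of 6.25, and early patterning genes lowest with a median of -1.03.

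Skeletal muscle genes showed the largest change. Their list, called contractile apparatus here, also holds genes of calcium handling such as atp2a1 and of energy supply such as ckma. Of the contractile apparatus, 38 of 40 genes with a value were higher by 2-fold or more at 24 hpf and 0 were lower by as much (median log2 change 6.25), and 29 were at least 16-fold higher. The 2 others, named after their values were seen, were tnni2b.2 at a log2 change of 0.60 and tnnt1 at 0.45 or more. Mybpc1 of the same list, above the controls at 12 hpf but not at 24 hpf, has no fold. Parvalbumins buffer calcium after a twitch, and pvalb2 of fast fibres had the largest change of any gene measured at both stages. Signal of pvalb2 was 20536 at 24 hpf and 10.9 at 12 hpf, a log2 change of 10.88. For pvalb1 it was 4900.1 at 24 hpf, against 9.86 at 12 hpf (log2 change 8.96). At 24 hpf pvalb4 had 1455, and at 12 hpf it was not above the controls (at least 188-fold higher at 24 hpf). The calcium pump atp2a1 refills the calcium store of the sarcoplasmic reticulum and so ends contraction. Signal of atp2a1 was 12939 at 24 hpf and 11.2 at 12 hpf, a log2 change of 10.17. These 4 genes of calcium handling were at or near the limit of measurement at 12 hpf and bright at 24 hpf.

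Thick and thin filament genes of fast fibres gave the same picture. Myosin light chains myl1, mylpfa and mylpfb sit on the neck of the myosin head. Signal of myl1 was 9115 at 24 hpf and 8.25 at 12 hpf, a log2 change of 10.11. For mylpfa it was 9387 at 24 hpf, against 9.97 at 12 hpf (log2 change 9.88 or more). At 24 hpf mylpfb had 6378, against 23.9 at 12 hpf (log2 change 8.06). The heavy chains of fast myosin, myhz2 and myhc4, were above the controls at 24 hpf but not at 12 hpf. At 5 hpf myhc4 had 16.75 and myhz2, in part at the limit, 12.6. At 24 hpf myhz2 had 2824, and at 12 hpf it was not above the controls (at least 364-fold higher at 24 hpf). Signal of myhc4 was 1276 at 24 hpf and was not above the controls at 12 hpf, which makes it at least 165-fold higher at 24 hpf. Troponin T anchors the troponin complex on the thin filament, and tnnt3a is its form in fast fibres. At 24 hpf tnnt3a had 4428, and at 12 hpf it was not above the controls (at least 571-fold higher at 24 hpf). For tnnt2c it was 5013 at 24 hpf, against 36.8 at 12 hpf (log2 change 7.09). Probes of such close family members can share target, which was not tested. Slow fibres, the first to form beside the notochord, express the myosin heavy chain smyhc1. Signal of smyhc1 was 1919 at 24 hpf and 182 at 12 hpf, a log2 change of 3.39. The slow gene was thus well above the controls at 12 hpf already, though not at 5 hpf. Its change was smaller than those of the other genes named in this paragraph. Elsewhere in the list, tnni2b.2 at 0.60 lay below smyhc1, and tnnc1b at 6.66 or more, named after its value was seen, lay above it. No contrast between fast and slow fibres is read from these genes.

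Further muscle genes outside the lists were among the largest changes. The gene hhatla is a muscle relative of hedgehog acyltransferase, and cavin4b coats the caveolae of muscle cells. Signal of hhatla was 1831 at 24 hpf and 8.95 at 12 hpf, a log2 change of 7.68. Signal of cavin4b was 1625 at 24 hpf and was not above the controls at 12 hpf, which makes it at least 209.7-fold higher at 24 hpf. Slc25a4 exchanges ADP and ATP across the mitochondrial membrane, ank1a links membranes to the spectrin skeleton, and tnni4b.2 is a troponin I gene. At 24 hpf slc25a4 had 809, and at 12 hpf it was not above the controls (at least 104-fold higher at 24 hpf). Signal of ank1a was 1574 at 24 hpf and was not above the controls at 12 hpf, which makes it at least 203-fold higher at 24 hpf. At 24 hpf tnni4b.2 had 1226, and at 12 hpf it was not above the controls (at least 158-fold higher at 24 hpf). Of these 5 genes, hhatla alone was above the controls at 12 hpf, and by little.

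Chaperones and assembly factors of the sarcomere changed less: 7 higher and 1 lower of 11 with a value, median log2 change 1.78. The kelch proteins klhl31 and klhl41b act in muscle differentiation. Signal of klhl31 was 3935 at 24 hpf and 125 at 12 hpf, a log2 change of 4.98. For klhl41b it was 15169 at 24 hpf, against 959 at 12 hpf (log2 change 3.98). The methyltransferases smyd1a and smyd1b assist myosin assembly, and the probes of smyd1b disagreed, from -0.18 to 1.87. Signal of smyd1a was 374 at 24 hpf and 24.96 at 12 hpf, a log2 change of 3.91 or more. For smyd1b it was 298 at 24 hpf, against 166 at 12 hpf (log2 change 0.85). Myosin is folded by the chaperone unc45b with its partner hsp90aa1.1, both well above the controls at 12 hpf. Signal of unc45b was 417 at 24 hpf and 295 at 12 hpf, a log2 change of 0.5. For hsp90aa1.1 it was 2062 at 24 hpf, against 811 at 12 hpf (log2 change 1.35). The small heat shock gene hspb1 went the other way, and its signal at 5 hpf was 33697. Signal of hspb1 was 6843 at 24 hpf and 39330.0 at 12 hpf, a log2 change of -2.52. The membrane protein popdc1 appeared at 24 hpf. At 24 hpf popdc1 had 63.5, and at 12 hpf it was not above the controls (at least 8.19-fold higher at 24 hpf).

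The factors that commit cells to muscle gave 6 higher and 3 lower of 17 with a value, median log2 change 0.41. Lower at 24 hpf were myf5, the earliest of the myogenic bHLH factors, meox1 of the paraxial mesoderm and lbx2 of migratory muscle precursors. Signal of myf5 was 412 at 24 hpf and 2086 at 12 hpf, a log2 change of -2.34. For meox1 it was 416 at 24 hpf, against 1190.3 at 12 hpf (log2 change -1.52). At 24 hpf lbx2 had 10.1, against 48.6 at 12 hpf (log2 change -2.27). Myod1 commits myoblasts, and myogenin (myog) drives their terminal differentiation. Signal of myod1 was 2243 at 24 hpf and 1068 at 12 hpf, a log2 change of 1.07. For myog it was 2516 at 24 hpf, against 221 at 12 hpf (log2 change 3.51). Their cofactors mef2ca and mef2aa were higher as well. Signal of mef2ca was 299.5 at 24 hpf and 50.9 at 12 hpf, a log2 change of 2.56. For mef2aa it was 161 at 24 hpf, against 30.8 at 12 hpf (log2 change 2.38). The muscle progenitor factor pax7a, named after its value was seen, was higher too, at 1.21. The remaining bHLH factor, myf6, stayed within 2-fold. Signal of myf6 was 86.5 at 24 hpf and 65 at 12 hpf, a log2 change of 0.41.

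Genes of glycolysis and of the creatine phosphate buffer, which supply the twitch with ATP, gave 21 higher and 1 lower of 31 with a value, median log2 change 1.88. The muscle creatine kinases ckma and ckmb were at or near the limit at 12 hpf. The probes of ckma spread from 3.93 to 10.04 and those of ckmb from 3.50 to 11.08. Signal of ckma was 1184 at 24 hpf and 9.34 at 12 hpf, a log2 change of 6.99. For ckmb it was 776 at 24 hpf, against 9.704 at 12 hpf (log2 change 6.32 or more). Pgam2 and aldoab are the muscle forms of phosphoglycerate mutase and aldolase. Signal of pgam2 was 1940.1 at 24 hpf and 28.7 at 12 hpf, a log2 change of 6.08 or more. For aldoab it was 5792 at 24 hpf, against 118 at 12 hpf (log2 change 5.61). Ckma, ckmb and pgam2 are also counted in the list of the contractile apparatus. Enzymes used by all cells were higher too. Signal of gapdh was 3641 at 24 hpf and 885 at 12 hpf, a log2 change of 2.04. For pgk1 it was 1226 at 24 hpf, against 210.5 at 12 hpf (log2 change 2.54). At 24 hpf ldha had 553, against 84.1 at 12 hpf (log2 change 2.72). Eno1a, an enolase, behaved alike. Signal of eno1a was 501 at 24 hpf and 81.7 at 12 hpf, a log2 change of 2.62. For gapdh, pgk1, eno1a and ldha the 12 hpf signal was the lowest of the 3 stages. At 5 hpf gapdh had 5953, pgk1 568 and eno1a 142.5. For ldha the 5 hpf signal, 84.97, was close to that at 12 hpf.

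The mitochondrial respiratory chain did not move as a set, with 43 of 46 genes within 2-fold and a median of 0.26. Core subunits of cytochrome oxidase, ATP synthase and complex III were level. Signal of cox4i1 was 10141 at 24 hpf and 8513 at 12 hpf, a log2 change of 0.25. For atp5f1b it was 4009 at 24 hpf, against 4577 at 12 hpf (log2 change -0.19). At 24 hpf uqcrc1 had 1172, against 997 at 12 hpf (log2 change 0.23). The 3 genes past 2-fold were small subunits. Signal of cox6b1 was 2225 at 24 hpf and 87.2 at 12 hpf, a log2 change of 4.67. For ndufa4b it was 527 at 24 hpf, against 24.98 at 12 hpf (log2 change 4.4). At 24 hpf atp5mc1 had 4387, against 2027 at 12 hpf (log2 change 1.11). Neither cox6b1 nor ndufa4b was above the controls at 5 hpf, whereas atp5mc1 was brightest at that stage, at 10593.

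Heart genes gave 8 higher and 4 lower of 18 with a value, median log2 change 0.51, a median that ran from -0.51 with probes measured at both stages to 1.41 with median-centred ratios. The cardiac light chains cmlc1 and myl7 mark the heart tube. Signal of cmlc1 was 904 at 24 hpf and 11.9 at 12 hpf, a log2 change of 6.25. For myl7 it was 490.0 at 24 hpf, against 8.87 at 12 hpf (log2 change 5.79 or more). Cardiac troponin T (tnnt2a) and troponin C (tnnc1a) make the thin filament respond to calcium. Signal of tnnt2a was 254 at 24 hpf and 9.68 at 12 hpf, a log2 change of 4.72 or more. Signal of tnnc1a was 266 at 24 hpf and was not above the controls at 12 hpf, which makes it at least 34.4-fold higher at 24 hpf. The myosin heavy chains of ventricle and atrium, myh7 and myh6, appeared at 24 hpf. At 24 hpf myh7 had 62.1, and at 12 hpf it was not above the controls (at least 8.01-fold higher at 24 hpf). Signal of myh6 was 54.1 at 24 hpf and was not above the controls at 12 hpf, which makes it at least 6.99-fold higher at 24 hpf. Nppa, the atrial natriuretic peptide of the working chambers, was close to the limit with 13 at 24 hpf. All 7 were at or near the limit of measurement at 12 hpf. The 4 lower genes, named after their values were seen, were the heart field factors gata5 (-1.45), gata6 (-1.53) and hand2 (-1.56 or below) and has2 (-1.65), which makes hyaluronan.

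**Figure D3:**
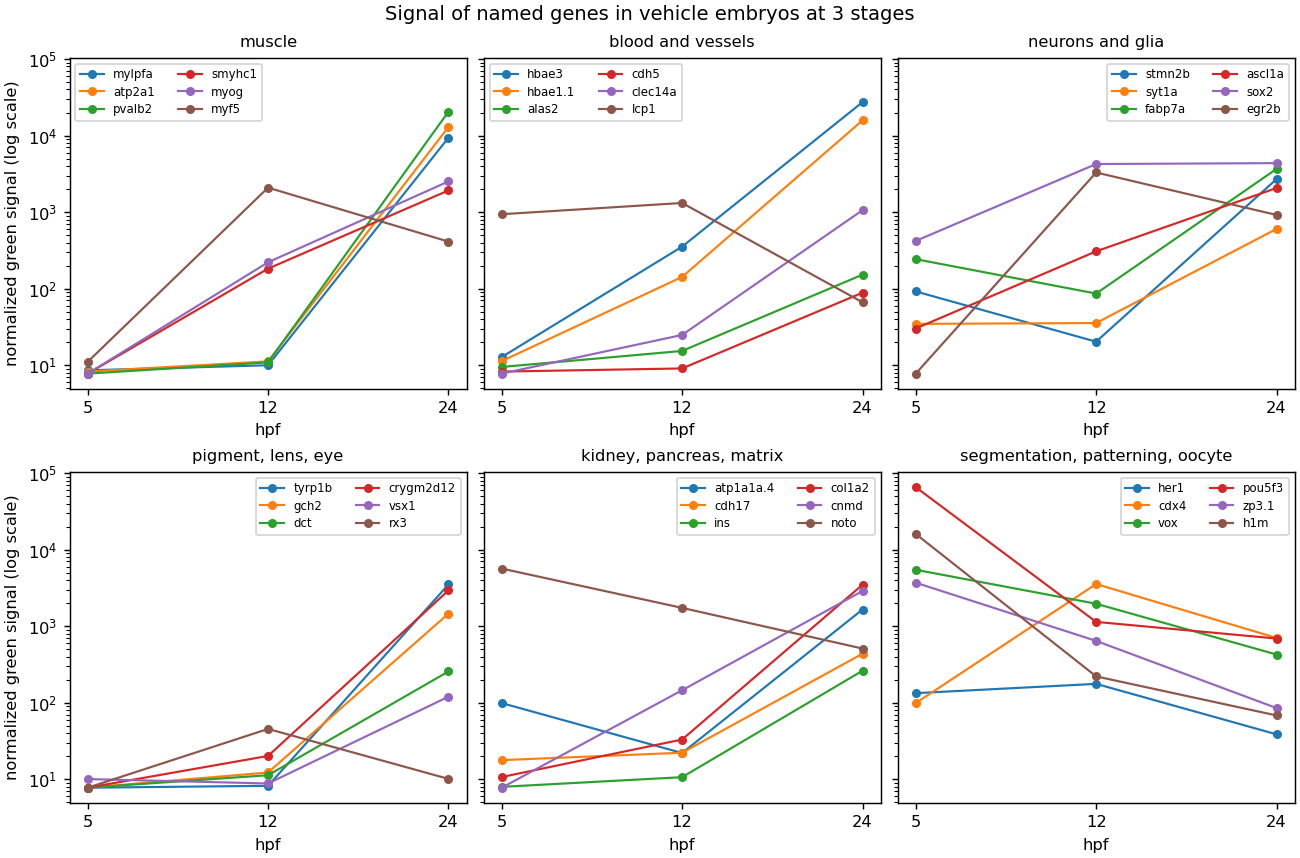
Normalized green signal (log scale) of named genes in vehicle embryos at 5, 12 and 24 hpf, 1 line per gene and 1 value per stage; points at 7.75 at 5 or 12 hpf and at 10.1 at 24 hpf are at the limit of measurement. Mylpfa, atp2a1, pvalb2, tyrp1b, gch2, dct and crygm2d12 lie near that limit until 12 hpf and are brighter at 24 hpf. The globins hbae3 and hbae1.1 and the slow muscle gene smyhc1 are well above it by 12 hpf and brighter still at 24 hpf. Myf5, egr2b and cdx4 are brightest at 12 hpf and pou5f3, zp3.1 and h1m at 5 hpf.

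Red blood cell genes followed the lens by median, with 13 higher and 1 lower of 19 with a value, median log2 change 2.42. The embryonic alpha globins hbae3 and hbae1.1 were already well above the controls at 12 hpf, but not far above them at 5 hpf, at 12.8 and 11.3. Signal of hbae3 was 27324 at 24 hpf and 353 at 12 hpf, a log2 change of 6.27. For hbae1.1 it was 15796 at 24 hpf, against 142 at 12 hpf (log2 change 6.8). The beta globins changed by more or by less, and the 3 probes of hbbe3 ranged from 2.98 to 11.07. Signal of hbbe3 was 4783 at 24 hpf and 15.3 at 12 hpf, a log2 change of 8.29. For hbbe2 it was 2084 at 24 hpf, against 8.33 at 12 hpf (log2 change 7.97 or more). At 24 hpf hbbe1.1 had 797, against 63.4 at 12 hpf (log2 change 3.65 or more). The probes of hbbe1.1 ran from 0.38 to 5.55. Globin genes are near-identical, so their probes may share target, which was not tested. Alas2 is the first enzyme of heme synthesis in red cells. Signal of alas2 was 152 at 24 hpf and 15.3 at 12 hpf, a log2 change of 3.31. The red cell's membrane skeleton holds the band protein epb41b and beta spectrin (sptb). Signal of epb41b was 318 at 24 hpf and 11.7 at 12 hpf, a log2 change of 4.77. Signal of sptb was 246 at 24 hpf and was not above the controls at 12 hpf, which makes it at least 31.7-fold higher at 24 hpf. The 1 lower gene, named after its value was seen, was lmo2 at -1.61. Members within 2-fold, named likewise, were blf (-0.70 or below), tal1 (-0.59 or below), fech (-0.13), nfe2 (0.24 or below) and gata1a (0.41).

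White blood cell genes were dim and mixed, with 6 higher and 3 lower of 15 with a value, median log2 change 0.38. That median is the value of csf3r, a lower limit set by the lowest measured signals of the arrays. With probes measured at both stages the median was 0.01, and with median-centred ratios 1.11. Markers of neutrophils and macrophages, the peroxidase mpx, the pore protein mpeg1.1 and lysozyme (lyz), were higher. At 24 hpf mpx had 57.1, and at 12 hpf it was not above the controls (at least 7.37-fold higher at 24 hpf). Signal of mpeg1.1 was 28.8 at 24 hpf and was not above the controls at 12 hpf, which makes it at least 3.72-fold higher at 24 hpf. At 24 hpf lyz had 29.6, against 9.54 at 12 hpf (log2 change 1.63 or more). So were the actin regulator coro1a and spi1b, the master factor of myeloid cells. Signal of coro1a was 87.6 at 24 hpf and 9.68 at 12 hpf, a log2 change of 3.18 or more. For spi1b it was 49.9 at 24 hpf, against 18.2 at 12 hpf (log2 change 1.45). The actin bundler lcp1 went against them, as did mmp9 at -1.01, named after its value was seen. At 5 hpf, a stage without leukocytes, lcp1 had 938 and coro1a had 257. Signal of lcp1 was 66.3 at 24 hpf and 1315 at 12 hpf, a log2 change of -4.31 or below. Subunits of the phagocyte oxidase differed in sign, and ncf1, which had 57.35 at 5 hpf, turned to -0.15 without a filter on dim probes. Signal of cyba was 24.8 at 24 hpf and 123 at 12 hpf, a log2 change of -2.32. For ncf1 it was 47.8 at 24 hpf, against 10.9 at 12 hpf (log2 change 2.13).

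Vessel genes gave 13 higher and 1 lower of 21 with a value, median log2 change 1.12. The lectin clec14a and VE-cadherin (cdh5) sit on endothelial cells and in their junctions. Signal of clec14a was 1059 at 24 hpf and 24.8 at 12 hpf, a log2 change of 5.42. For cdh5 it was 88.4 at 24 hpf, against 9.05 at 12 hpf (log2 change 3.29 or more). The probes of cdh5 ran from 1.05 to 5.76. Cldn5b seals tight junctions and plvapb spans endothelial pores. Signal of cldn5b was 226 at 24 hpf and 35.7 at 12 hpf, a log2 change of 2.66. For plvapb it was 86.3 at 24 hpf, against 17.02 at 12 hpf (log2 change 2.34). Genes already used by angioblasts changed less, and the probes of kdrl, a VEGF receptor with values at the limit at both stages, ran from -0.35 to 2.71. Signal of fli1 was 382 at 24 hpf and 278 at 12 hpf, a log2 change of 0.46. For tie1 it was 41.9 at 24 hpf, against 20.5 at 12 hpf (log2 change 1.03). At 24 hpf kdrl had 31.5, against 15.4 at 12 hpf (log2 change 1.04). The apelin receptor aplnra, which guides mesoderm cells in gastrulation, was lower at 24 hpf, and it had 659 at 5 hpf. Signal of aplnra was 54.9 at 24 hpf and 372 at 12 hpf, a log2 change of -2.76.

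In the nervous system, genes of differentiated neurons were mostly higher: 26 higher and 1 lower of 36 with a value, median log2 change 1.9. Stathmins regulate microtubules in growing axons. Signal of stmn2b was 2697 at 24 hpf and 20.2 at 12 hpf, a log2 change of 7.06. For stmn2a it was 234 at 24 hpf, against 8.02 at 12 hpf (log2 change 4.87 or more). The 5 hpf signal of stmn2b, 91.8, exceeded that at 12 hpf. Syt1a and snap25a release synaptic vesicles, and slc32a1 fills them with GABA or glycine. Signal of syt1a was 603 at 24 hpf and 35.5 at 12 hpf, a log2 change of 4.09. For snap25a it was 122 at 24 hpf, against 8.56 at 12 hpf (log2 change 3.84 or more). At 24 hpf slc32a1 had 178, against 8.19 at 12 hpf (log2 change 4.44 or more). The neurofilament gene inab was above the controls at 5 hpf, at 15.95, and at 24 hpf but not at 12 hpf. At 24 hpf inab had 246, and at 12 hpf it was not above the controls (at least 31.7-fold higher at 24 hpf). Of the RNA-binding Hu genes, elavl3 marks neurons from an early stage and elavl4 slightly later. Signal of elavl3 was 101 at 24 hpf and 49.9 at 12 hpf, a log2 change of 1.02. For elavl4 it was 100.5 at 24 hpf, against 10.3 at 12 hpf (log2 change 3.28 or more).

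Progenitor and proneural genes were balanced: of 43 with a value, 31 stayed within 2-fold, 7 were higher and 5 lower, with a median of -0.01 whose sign changes with the scaling. Sox2 maintains neural progenitors, neurog1 is a proneural factor and her4.1 a target of Notch. Signal of sox2 was 4362 at 24 hpf and 4246 at 12 hpf, a log2 change of 0.04. For neurog1 it was 604 at 24 hpf, against 496 at 12 hpf (log2 change 0.28). At 24 hpf her4.1 had 1249, against 696 at 12 hpf (log2 change 0.84). Higher at 24 hpf were the proneural factors ascl1a and neurod4 and the rhombic lip factor atoh1a. Signal of ascl1a was 2063 at 24 hpf and 307 at 12 hpf, a log2 change of 2.75. For neurod4 it was 755 at 24 hpf, against 211 at 12 hpf (log2 change 1.84). At 24 hpf atoh1a had 79.2, against 17.9 at 12 hpf (log2 change 2.15). Lower were egr2b, which sets a pair of hindbrain segments, and pax8, an early gene of ear and kidney. Signal of egr2b was 917 at 24 hpf and 3292 at 12 hpf, a log2 change of -1.84. For pax8 it was 13 at 24 hpf, against 55.6 at 12 hpf (log2 change -2.1).

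The list of glia gave 5 higher and 1 lower of 10 with a value, median log2 change 1.25. Radial glia express the fatty acid binding protein fabp7a, whose 3 probes ranged from 5.30 to 5.56, and the filament gfap. Signal of fabp7a was 3668 at 24 hpf and 86.2 at 12 hpf, a log2 change of 5.41. For gfap it was 399.9 at 24 hpf, against 87.5 at 12 hpf (log2 change 2.19). They also clear glutamate through slc1a2b and are coupled by the gap junction gene gja1b. Signal of slc1a2b was 1547 at 24 hpf and 192 at 12 hpf, a log2 change of 3.01. For gja1b it was 412 at 24 hpf, against 31.2 at 12 hpf (log2 change 3.72). Glutamine synthetase (glula) was lower at 24 hpf, and it had 4982 at 5 hpf. Signal of glula was 973 at 24 hpf and 2221 at 12 hpf, a log2 change of -1.19. Myelin protein zero (mpz) and the calcium-binding gene s100b lay between. Signal of mpz was 121 at 24 hpf and 36.1 at 12 hpf, a log2 change of 1.75 or more. For s100b it was 24.8 at 24 hpf, against 14.8 at 12 hpf (log2 change 0.75).

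Among neuropeptides and pituitary genes, 9 of 14 genes with a value were higher by 2-fold or more at 24 hpf and 0 were lower by as much (median log2 change 1.5). Tac1 is the precursor of substance P, penka that of enkephalin, and adcyap1b encodes PACAP. At 24 hpf tac1 had 441, and at 12 hpf it was not above the controls (at least 56.9-fold higher at 24 hpf). For penka it was 355 at 24 hpf, against 24.9 at 12 hpf (log2 change 3.83). At 24 hpf adcyap1b had 174, against 14.6 at 12 hpf (log2 change 3.58 or more). The hypothalamic hormones trh and vasotocin (avp) were higher too. Signal of trh was 145 at 24 hpf and 26.9 at 12 hpf, a log2 change of 2.43. For avp it was 26.2 at 24 hpf, against 7.75 at 12 hpf (log2 change 1.76). The genes pomca, gnrh3 and oxt lay at or close to the limit at both stages, and no order is read from them.

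In neural crest and pigment cells, 11 of 24 genes with a value were higher by 2-fold or more at 24 hpf and 0 were lower by as much (median log2 change 0.88). The enzymes tyrp1b and dct make melanin, and pmela builds the matrix on which it is laid down. Signal of tyrp1b was 3510.2 at 24 hpf and 8.2 at 12 hpf, a log2 change of 8.74. For dct it was 256 at 24 hpf, against 11.3 at 12 hpf (log2 change 4.5). At 24 hpf pmela had 229.9, against 25.96 at 12 hpf (log2 change 3.15). The probes of dct ran from 2.54 to 6.47 and those of pmela from 1.04 to 4.39. Gch2 starts pteridine synthesis in yellow pigment cells and was measured by 5 probes. Signal of gch2 was 1458 at 24 hpf and 12.2 at 12 hpf, a log2 change of 6.9 or more. Transcription factors of these lineages changed less than tyrp1b and gch2. Signal of tfap2e was 703 at 24 hpf and 49 at 12 hpf, a log2 change of 3.84. For dlx2a it was 307 at 24 hpf, against 69.3 at 12 hpf (log2 change 2.15). At 24 hpf sox10 had 103, against 111 at 12 hpf (log2 change -0.12 or below). The melanocyte factor mitfa was at 10.1 at 24 hpf, the lowest signal measured on that array.

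The lens list was second by median: 17 of 23 genes with a value were higher by 2-fold or more at 24 hpf and 0 were lower by as much (median log2 change 2.94). Cryabb (-0.79 or below), crygmx (-0.74 or below) and grifin (-0.85 or below), named after their values were seen, are limits and may be lower by 2-fold. In the authors' processed signal 3 lens genes were at least 2-fold lower. Beta crystallins are structural proteins of the fibre cells, and those named were at or near the limit at 12 hpf. Signal of cryba4 was 525 at 24 hpf and 16.9 at 12 hpf, a log2 change of 4.96 or more. For cryba2a it was 377 at 24 hpf, against 10.1 at 12 hpf (log2 change 5.21 or more). At 24 hpf cryba1b had 675, and at 12 hpf it was not above the controls (at least 87.04-fold higher at 24 hpf). The same held for crybb1, for the gamma crystallin crygmxl2 and for the fibre membrane protein lim2.1. At 24 hpf crybb1 had 353, and at 12 hpf it was not above the controls (at least 45.6-fold higher at 24 hpf). Signal of crygmxl2 was 553 at 24 hpf and was not above the controls at 12 hpf, which makes it at least 71.3-fold higher at 24 hpf. At 24 hpf lim2.1 had 287, and at 12 hpf it was not above the controls (at least 36.99-fold higher at 24 hpf). The probes of cryba1b ran from 3.99 to 8.90 and those of crybb1 from 2.24 to 6.77. Gamma M crystallins are a family expanded in fish, and 5 of them were among the 15 largest increases of genes measured at both stages. Signal of crygm2d12 was 2934 at 24 hpf and 20.1 at 12 hpf, a log2 change of 7.19. For crygm2d4 it was 1952 at 24 hpf, against 8.2 at 12 hpf (log2 change 7.89). At 24 hpf crygm2d9 had 2178, against 15.8 at 12 hpf (log2 change 7.11). The other two gave like values. Signal of crygm2d17 was 2714 at 24 hpf and 20.4 at 12 hpf, a log2 change of 7.06. For crygm2d20 it was 1879.5 at 24 hpf, against 12.9 at 12 hpf (log2 change 7.19). Members of this family are near-identical, so probes may not separate them, which was not tested. Alpha A crystallin (cryaa), a lens chaperone, was close to the limit with 12.4 at 24 hpf.

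In eye field and retina the count was 9 higher and 3 lower of 26 with a value, median log2 change 0.35. Rx3 is required to form the eye field. At 24 hpf rx3 was not above the controls, against 45.4 at 12 hpf (at least 4.495-fold lower at 24 hpf). Later factors went the other way: vsx1 acts in bipolar cells and six6b in the growing eye. Signal of vsx1 was 119.9 at 24 hpf and 8.8 at 12 hpf, a log2 change of 3.77. For six6b it was 66.6 at 24 hpf, against 8.803 at 12 hpf (log2 change 2.92 or more). Rpe65a recycles retinoids in the pigment epithelium, and aldh1a3 makes retinoic acid in the ventral retina. Signal of rpe65a was 187 at 24 hpf and 17.4 at 12 hpf, a log2 change of 3.42. For aldh1a3 it was 47.5 at 24 hpf, against 11.6 at 12 hpf (log2 change 2.04 or more). The paralogs of rx3 differed from it and from each other. Signal of rx1 was 105 at 24 hpf and 26.7 at 12 hpf, a log2 change of 1.98 or more. For rx2 it was 59.3 at 24 hpf, against 81.7 at 12 hpf (log2 change -0.46).

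Pineal gland and ear showed no common direction. Pineal genes gave 2 higher and 1 lower of 11 with a value, median log2 change 0.25, and among them exorh is the pineal opsin, aanat2 the melatonin enzyme and crx a photoreceptor factor. Signal of exorh was 476 at 24 hpf and 547 at 12 hpf, a log2 change of -0.2. For aanat2 it was 21.9 at 24 hpf, against 40.9 at 12 hpf (log2 change -0.9). At 24 hpf crx had 66.4, against 19.9 at 12 hpf (log2 change 1.74). For inner ear and lateral line the count was 6 higher and 7 lower of 23 with a value, median log2 change -0.38. Oc90, stm and otomp encode otolith proteins, and the probes of oc90 ran from -0.85 to 1.37. Signal of oc90 was 127 at 24 hpf and 93.9 at 12 hpf, a log2 change of 0.43 or below. For stm it was 103 at 24 hpf, against 178 at 12 hpf (log2 change -0.79). At 24 hpf otomp had 22.4, and at 12 hpf it was not above the controls (at least 2.897-fold higher at 24 hpf). The placode factor pax2a stayed within 2-fold. Signal of pax2a was 85.7 at 24 hpf and 144 at 12 hpf, a log2 change of -0.74.

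The notochord list gave 12 higher and 6 lower of 29 with a value, median log2 change 0.48. Noto and tbxta specify the axial mesoderm. For noto the signals at 5, 12 and 24 hpf were 5659.8, 1734 and 509.9. The gene tbxta had 4697, 1644 and 986 at 5, 12 and 24 hpf. The hedgehog ligand shha patterns muscle and floor plate and was nearly level. Signal of shha was 1116 at 24 hpf and 882 at 12 hpf, a log2 change of 0.34. Matrix genes differed in sign. Higher were chondromodulin (cnmd), the matrilin matn3b and the proteoglycan epyc, whereas the matrilin matn1 and the laminin chain lamb1a, named after their values were seen, were lower at -1.65 and -1.35. Signal of cnmd was 2879 at 24 hpf and 145 at 12 hpf, a log2 change of 4.31. Signal of matn3b was 127 at 24 hpf and was not above the controls at 12 hpf, which makes it at least 16.4-fold higher at 24 hpf. At 24 hpf epyc had 98.04, against 8.87 at 12 hpf (log2 change 3.47 or more). The sheath collagens col2a1a and col9a2 were higher, and col8a1a was level at 0.48. Signal of col2a1a was 318 at 24 hpf and 65.2 at 12 hpf, a log2 change of 2.28 or more. For col9a2 it was 942 at 24 hpf, against 90.8 at 12 hpf (log2 change 3.37).

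Skeleton, fin and connective tissue gave 17 higher and 2 lower of 33 with a value, median log2 change 1.01. Type I collagen is the main fibre of skin and connective tissue. Signal of col1a2 was 3479 at 24 hpf and 33.01 at 12 hpf, a log2 change of 6.72. For col1a1a it was 534 at 24 hpf, against 9.42 at 12 hpf (log2 change 5.83 or more). At 24 hpf col1a1b had 786, against 16.02 at 12 hpf (log2 change 5.62 or more). The 4 probes of col1a1b ran from 0.75 to 8.02 and the 4 of col1a1a from 1.96 to 7.35. The matricellular protein postnb changed evenly in 3 probes, from 6.53 to 6.76. Signal of postnb was 2482 at 24 hpf and 24.8 at 12 hpf, a log2 change of 6.64. Hapln1a links hyaluronan to proteoglycans, dcn coats collagen fibrils and sparc assists collagen secretion. Signal of hapln1a was 844 at 24 hpf and 106 at 12 hpf, a log2 change of 2.99. For dcn it was 239 at 24 hpf, against 30.4 at 12 hpf (log2 change 2.98 or more). At 24 hpf sparc had 849, against 132 at 12 hpf (log2 change 2.68). The actinodin and2 builds the fibrils of the fin fold, and tgm2a, outside the lists, crosslinks proteins. At 24 hpf and2 had 53.1, and at 12 hpf it was not above the controls (at least 6.85-fold higher at 24 hpf). Signal of tgm2a was 3809.6 at 24 hpf and was not above the controls at 12 hpf, which makes it at least 492-fold higher at 24 hpf.

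The skin showed no common direction: of 45 epidermis genes with a value, 26 stayed within 2-fold, 12 were higher and 7 lower. The median was -0.18, but the shares past 2-fold, 26.7% higher and 15.6% lower, exceeded those of all genes (12.9% and 11.2%). Keratins of the outer and basal layers were level. Signal of krt4 was 8349.7 at 24 hpf and 7688 at 12 hpf, a log2 change of 0.12. For krt5 it was 4203 at 24 hpf, against 5809 at 12 hpf (log2 change -0.47). At 24 hpf krt17 had 26674, against 21391 at 12 hpf (log2 change 0.32). So was tp63, the factor of the basal layer. Signal of tp63 was 77.7 at 24 hpf and 118 at 12 hpf, a log2 change of -0.6. Other keratins went both ways: krt1-19e and krt18b were among the higher, and krt95 (-1.91 or below), krt18a.1 (-1.63), krt99 (-1.53) and krt8 (-1.28), named after their values were seen, were at least 2-fold lower. Signal of krt1-19e was 839.8 at 24 hpf and 10.8 at 12 hpf, a log2 change of 6.28 or more. For krt18b it was 284 at 24 hpf, against 11.2 at 12 hpf (log2 change 4.66). The probes of krt1-19e ran from 2.24 to 7.96. The calcium-binding genes s100a10b and icn (ictacalcin) were higher as well and were above the controls at 12 hpf. Signal of s100a10b was 4181 at 24 hpf and 227 at 12 hpf, a log2 change of 4.2. For icn it was 10639 at 24 hpf, against 1681 at 12 hpf (log2 change 2.66). Keratin probes may share target among family members, which was not tested.

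Ionocytes, the ion-transporting cells of the skin, gave 4 higher and 1 lower of 11 with a value, median log2 change 0.63. Atp1a1a.2 and atp1b1b are subunits of the sodium pump. At 24 hpf atp1a1a.2 had 828, and at 12 hpf it was not above the controls (at least 106.9-fold higher at 24 hpf). For atp1b1b it was 56.1 at 24 hpf, against 10.1 at 12 hpf (log2 change 2.48 or more). Carbonic anhydrases supply the protons that these cells exchange for sodium. Signal of ca2 was 324 at 24 hpf and 34.6 at 12 hpf, a log2 change of 3.23 or more. For ca15a it was 53.5 at 24 hpf, against 8.6 at 12 hpf (log2 change 2.64). Foxi3a and foxi3b specify the cells. Signal of foxi3a was 69 at 24 hpf and 180.5 at 12 hpf, a log2 change of -1.39. For foxi3b it was 26.9 at 24 hpf, against 29.6 at 12 hpf (log2 change -0.14).

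Of 14 hatching gland genes 2 were higher and 5 lower, with a median of -0.26. The he1 genes encode choriolysin, which digests the egg envelope, and the 3 probes of he1.2 ranged from -1.98 to 0.82. Signal of he1.1 was 379 at 24 hpf and 2285 at 12 hpf, a log2 change of -2.59. For he1.2 it was 4638 at 24 hpf, against 5138 at 12 hpf (log2 change -0.15). At 24 hpf he1.3 had 243, against 24.3 at 12 hpf (log2 change 3.32 or more). Since these copies differed in sign, shared probe target bears on them too and was not tested. The cathepsin ctslb is another enzyme of the gland. Signal of ctslb was 4733 at 24 hpf and 11035 at 12 hpf, a log2 change of -1.22. Klf17 and gsc belong to the prechordal mesoderm from which the gland forms. Signal of klf17 was 671, 203 and 54 at 5, 12 and 24 hpf. For gsc the signals at 5, 12 and 24 hpf were 1680.3, 217 and 58.04. The secretory gene agr2 rests on probes at -0.21 and 3.34, and the authors' processed signal gave -1.18. Signal of agr2 was 94.3 at 24 hpf and 31.8 at 12 hpf, a log2 change of 1.57.

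The pronephros, the embryonic kidney, gave 9 higher and 6 lower of 27 with a value, median log2 change 0.04. Tubule cells carry the sodium pump atp1a1a.4 and the adhesion protein cdh17. Signal of atp1a1a.4 was 1650.5 at 24 hpf and 22 at 12 hpf, a log2 change of 6.23. For cdh17 it was 436 at 24 hpf, against 22.2 at 12 hpf (log2 change 4.3). The distal nephron and duct express the chloride channel clcnk, the cotransporter slc12a3 and the receptor ret. Signal of clcnk was 94.4 at 24 hpf and 11.1 at 12 hpf, a log2 change of 3.09 or more. For ret it was 90.5 at 24 hpf, against 16.8 at 12 hpf (log2 change 2.43). At 24 hpf slc12a3 had 60.97, against 9.99 at 12 hpf (log2 change 2.61 or more). Probes of slc12a3 ran from -0.35 to 5.45. The tubule factor hnf1ba was lower by less than 2-fold. Signal of hnf1ba was 258 at 24 hpf and 391 at 12 hpf, a log2 change of -0.6 or below. The early factors pax8 and pax2a, given above, had changes of -2.1 and -0.74. Against these, the transcription factors emx1 and evx1 were higher at 2.16 and 2.37 and the transporter slc26a1 was level at -0.29, all named after their values were seen.

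Gut, liver and pancreas gave 10 higher and 6 lower of 33 with a value, median log2 change -0.04, a median whose sign depends on the scaling. The first endocrine cells make insulin (ins) and somatostatin (sst2). Signal of ins was 262 at 24 hpf and 10.6 at 12 hpf, a log2 change of 4.62 or more. For sst2 it was 148 at 24 hpf, against 15.9 at 12 hpf (log2 change 3.22). Ptf1a specifies exocrine pancreas and ela2 is one of its proteases. Signal of ptf1a was 67.3 at 24 hpf and 10.1 at 12 hpf, a log2 change of 2.74. For ela2 it was 54.3 at 24 hpf, against 11.4 at 12 hpf (log2 change 2.25). Ceruloplasmin (cp) is a copper carrier made by the liver. Signal of cp was 252 at 24 hpf and 32.7 at 12 hpf, a log2 change of 2.94. The pancreas factor pdx1 was higher here but changed by only 0.03 in the authors' processed signal. Signal of pdx1 was 105 at 24 hpf and 42.5 at 12 hpf, a log2 change of 1.3. Of the endoderm factors, foxa1 was level and foxa3 lower. Signal of foxa1 was 142 at 24 hpf and 106 at 12 hpf, a log2 change of 0.43. For foxa3 it was 155 at 24 hpf, against 413 at 12 hpf (log2 change -1.41).

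The yolk syncytial layer feeds yolk lipid to the embryo, and its list gave 7 higher and 5 lower of 27 with a value, median log2 change -0.35. Of 9 genes with a value for apolipoproteins, which carry the lipid, apoeb (8 probes) and apoa1b were at least 2-fold lower. Signal of apoeb was 2425 at 24 hpf and 12712 at 12 hpf, a log2 change of -2.39. For apoa1b it was 200.4 at 24 hpf, against 726 at 12 hpf (log2 change -1.86). At 24 hpf apoa2 had 396, against 662 at 12 hpf (log2 change -0.74). Apobb.1 encodes the large scaffold of the particles. Signal of apobb.1 was 261 at 24 hpf and 339 at 12 hpf, a log2 change of -0.38. The apolipoprotein apoea, named after its value was seen, was higher, at 2.33 or more. Plasma proteins differed in sign: fga, a fibrinogen chain, f10, a clotting factor, and rbp4, the retinol carrier, were higher, whereas cpn1 was lower at -1.51 and the fibrinogen chain fgg was at -0.06 or below. Signal of fga was 512 at 24 hpf and 62.2 at 12 hpf, a log2 change of 3.04. For f10 it was 61.4 at 24 hpf, against 9.85 at 12 hpf (log2 change 2.64). At 24 hpf rbp4 had 361, against 66.2 at 12 hpf (log2 change 2.45). The iron exporter slc40a1 was higher too. Signal of slc40a1 was 107.2 at 24 hpf and 17.3 at 12 hpf, a log2 change of 2.63 or more.

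Cilia genes stayed mostly level, 19 of 23 within 2-fold and 3 higher, with a median of 0.20. Foxj1a and foxj1b switch on the program of motile cilia. Signal of foxj1a was 139.6 at 24 hpf and 163 at 12 hpf, a log2 change of -0.22. For foxj1b it was 59.9 at 24 hpf, against 169.6 at 12 hpf (log2 change -1.5). The 3 higher genes were the tektin tekt4, capsla and tppp3. Signal of tekt4 was 55.02 at 24 hpf and 12.4 at 12 hpf, a log2 change of 2.15. For capsla it was 301 at 24 hpf, against 72.8 at 12 hpf (log2 change 2.05). At 24 hpf tppp3 had 42.5, against 19.8 at 12 hpf (log2 change 1.1).

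Hox genes give positions along the body axis their identity and are switched on from head to tail, and their change differed by place in the cluster. Of 47 with a value, 13 were at least 2-fold higher at 24 hpf and 9 lower. Of 12 genes of paralog groups 11 to 13, which pattern the tail, 10 were higher and 0 lower, with a median of 1.73. Under other settings that median ran from 0.61 with normexp background correction to 2.47 in the authors' processed signal. Those within 2-fold, named after their values were seen, were hoxa13b at -0.34 and hoxd11a at -0.22. Signal of hoxc13a was 269.6 at 24 hpf and 10.1 at 12 hpf, a log2 change of 4.74. For hoxd13a it was 78.3 at 24 hpf, against 13.2 at 12 hpf (log2 change 2.57). At 24 hpf hoxa13a had 35.6, against 9.5 at 12 hpf (log2 change 1.91). Hoxb13a and hoxc13b of group 13 were at the limit at 12 hpf in whole or in part. Signal of hoxb13a was 29.2 at 24 hpf and 8.54 at 12 hpf, a log2 change of 1.77 or more. Signal of hoxc13b was 67.3 at 24 hpf and was not above the controls at 12 hpf, which makes it at least 8.69-fold higher at 24 hpf.

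Hox genes of other groups were mostly above the controls at 12 hpf already. So were genes of groups 11 to 13 such as hoxa11b, at 81.98, and hoxd11a, at 76.6. The medians were 0.12 in groups 1 to 4 (14 genes, 2 higher and 3 lower), -0.03 in groups 5 to 8 (12 genes, 1 higher and 3 lower) and -0.73 in groups 9 and 10 (9 genes, 0 higher and 3 lower). Hoxb1b acts early in the hindbrain, and hoxa9a and hoxb9a in the trunk. Signal of hoxb1b was 420.5 at 24 hpf and 1132 at 12 hpf, a log2 change of -1.43. For hoxa9a it was 107.3 at 24 hpf, against 268 at 12 hpf (log2 change -1.32). At 24 hpf hoxb9a had 112, against 176 at 12 hpf (log2 change -0.65). The 3 higher genes outside groups 11 to 13, named after their values were seen, were hoxc1a, hoxc4a and hoxb8a. Signal of hoxc1a was 153 at 24 hpf and 55.9 at 12 hpf. For hoxc4a it was 171 at 24 hpf and 58.3 at 12 hpf. For hoxb8a it was 222 at 24 hpf and 77.9 at 12 hpf. Across the 47 genes, which share both arrays and lie in clusters, paralog group and change correlated with r = 0.44 (rho = 0.35).

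**Figure D4:**
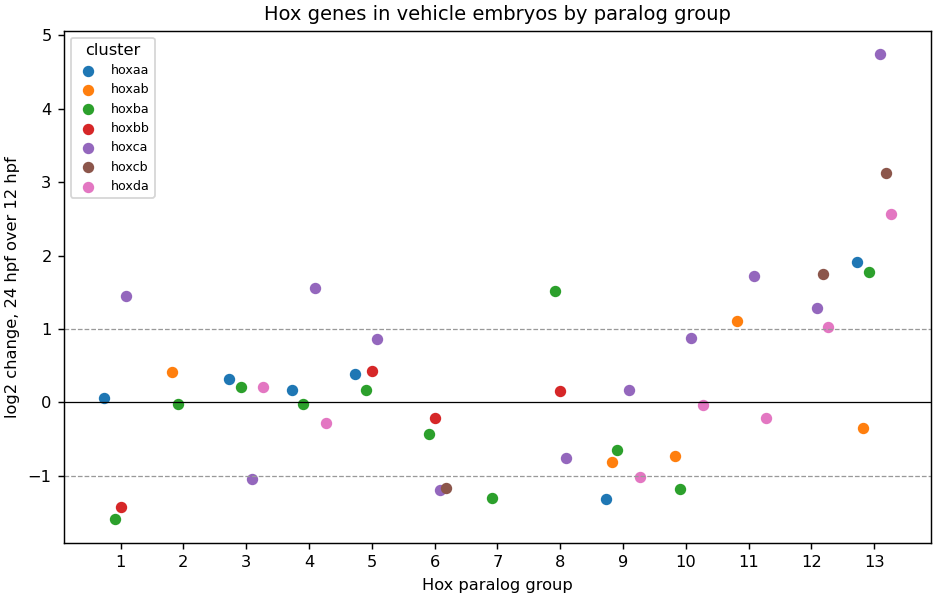
Log2 change from 12 to 24 hpf (vertical axis) of 47 Hox genes by paralog group (horizontal axis), coloured by cluster and shifted sideways within a group; dashed lines mark 2-fold. Of the 12 genes of groups 11 to 13, 10 lie above the upper dashed line, and genes of groups 9 and 10 lie mostly below 0.

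Genes of the segmentation clock and presomitic mesoderm were lower at 24 hpf: of 42 with a value, 21 were at least 2-fold lower and 1 was higher, with a median of -0.99. Her1, her7 and her11 are repressors whose oscillation times the somites. Signal of her1 was 38.6 at 24 hpf and 176 at 12 hpf, a log2 change of -2.19. For her7 it was 78.1 at 24 hpf, against 399 at 12 hpf (log2 change -2.35). At 24 hpf her11 had 18.2, against 149.5 at 12 hpf (log2 change -3.03). Dlc is a Notch ligand of the clock and mespba sets the next somite boundary. Signal of dlc was 100.4 at 24 hpf and 229 at 12 hpf, a log2 change of -1.19. For mespba it was 94.9 at 24 hpf, against 581 at 12 hpf (log2 change -2.62). Msgn1 and cdx4 act in the progenitors at the tail end, and both were brightest at 12 hpf. The gene msgn1 had 187, 7028 and 2048 at 5, 12 and 24 hpf. Signal of cdx4 was 98.7, 3553 and 702 at 5, 12 and 24 hpf. The 1 higher gene was evx1, which is also expressed in spinal interneurons. Signal of evx1 was 162 at 24 hpf and 31.3 at 12 hpf, a log2 change of 2.37.

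Early patterning and pluripotency genes gave 21 of 39 at least 2-fold lower and 0 higher, with a median of -1.03. The repressors vox, vent and ved confine the dorsal organizer. For vox the signals at 5, 12 and 24 hpf were 5456, 1963 and 426. The gene vent had 487, 124 and 13.8 at 5, 12 and 24 hpf. Signal of ved was 16451, 6330.5 and 2338 at 5, 12 and 24 hpf. Sizzled (szl) and chordin (chrd) are secreted proteins that shape the BMP gradient. Signal of szl was 20.4 at 24 hpf and 261 at 12 hpf, a log2 change of -3.68. At 24 hpf chrd was not above the controls, against 96.8 at 12 hpf (at least 9.58-fold lower at 24 hpf). Admp is a ligand of the organizer and frzb a Wnt inhibitor. Signal of admp was 81.7 at 24 hpf and 451 at 12 hpf, a log2 change of -2.46. For frzb it was 31.8 at 24 hpf, against 145 at 12 hpf (log2 change -2.19 or below). Pou5f3 is the pluripotency factor that activates the zygotic genome. For pou5f3 the signals at 5, 12 and 24 hpf were 65469.9, 1137 and 689. Its signal was thus already far below the 5 hpf level at 12 hpf, and its change between 12 and 24 hpf was -0.72.

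Transcripts supplied by the egg and those of germ cells gave 15 of 28 at least 2-fold lower and 1 higher, with a median of -1.01. H1m is the linker histone of the oocyte, org an oocyte gene, and zp2.1 builds the egg envelope. The gene h1m had 16028, 221 and 68.2 at 5, 12 and 24 hpf. Signal of org was 2958, 222 and 46.5 at 5, 12 and 24 hpf. For zp2.1 the signals at 5, 12 and 24 hpf were 853, 447 and 95.6. Zar1 acts in the oocyte as well. The gene zar1 had 989, 193 and 60.4 at 5, 12 and 24 hpf. Ddx4 (vasa), dnd1, tdrd7a and nanos3 are germ plasm genes, kept by the few primordial germ cells. Signal of ddx4 was 10.1 at 24 hpf and 20.95 at 12 hpf, a log2 change of -1.05 or below. For dnd1 it was 15.8 at 24 hpf, against 36.5 at 12 hpf (log2 change -1.21 or below). The other two changed less. Signal of tdrd7a was 57.6 at 24 hpf and 94.3 at 12 hpf, a log2 change of -0.71. For nanos3 it was 352 at 24 hpf, against 419 at 12 hpf (log2 change -0.25). In each of these 8 genes the 5 hpf signal was the highest of the 3.

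Proliferation genes were lower by a smaller step: of 62 cell cycle and replication genes, 13 were at least 2-fold lower and 0 higher, with a median of -0.68. The cyclins ccnb1 and ccne1 drive entry into mitosis and into replication. Signal of ccnb1 was 14045, 2278 and 1132 at 5, 12 and 24 hpf. For ccne1 the signals at 5, 12 and 24 hpf were 3505, 178 and 66.3. Mcm5 and mcm4 are subunits of the replicative helicase, and pcna is the replication clamp. Signal of mcm5 was 449.6 at 24 hpf and 1045 at 12 hpf, a log2 change of -1.22. For mcm4 it was 290.2 at 24 hpf, against 743 at 12 hpf (log2 change -1.36 or below). At 24 hpf pcna had 1407, against 2320.1 at 12 hpf (log2 change -0.72). Chek1 and wee1 are checkpoint kinases. Signal of chek1 was 95.5 at 24 hpf and 299 at 12 hpf, a log2 change of -1.65. For wee1 it was 59.3 at 24 hpf, against 156 at 12 hpf (log2 change -1.39). The cyclin ccnd1 was slightly higher. Signal of ccnd1 was 957 at 24 hpf and 726 at 12 hpf, a log2 change of 0.4.

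Genes that build ribosomes and genes for the ribosome's own proteins gave different counts. Of 49 nucleolar genes, 20 were at least 2-fold lower and 0 higher, with a median of -0.84. Fibrillarin (fbl) methylates ribosomal RNA together with nop58 and nop56. Signal of fbl was 2439 at 24 hpf and 7354 at 12 hpf, a log2 change of -1.59. For nop58 it was 1276 at 24 hpf, against 3134 at 12 hpf (log2 change -1.3). At 24 hpf nop56 had 8856, against 12913 at 12 hpf (log2 change -0.54). Wdr75, imp3, nop14 and wdr12 are assembly factors. Signal of wdr75 was 64.8 at 24 hpf and 342 at 12 hpf, a log2 change of -2.4. For imp3 it was 91.1 at 24 hpf, against 424 at 12 hpf (log2 change -2.22). The rest of the named ones changed less. Signal of nop14 was 411 at 24 hpf and 1095 at 12 hpf, a log2 change of -1.41. For wdr12 it was 129 at 24 hpf, against 336 at 12 hpf (log2 change -1.39). At 24 hpf ncl had 457, against 769 at 12 hpf (log2 change -0.75). Of 73 ribosomal protein genes, 72 stayed within 2-fold, with a median of 0.23. Signal of rpl3 was 32910.0 at 24 hpf and 34002 at 12 hpf, a log2 change of -0.05. For rplp0 it was 24952 at 24 hpf, against 22027 at 12 hpf (log2 change 0.18). At 24 hpf rpl13 had 37460.5, against 33223 at 12 hpf (log2 change 0.17). The 1 past 2-fold was rpl36. Signal of rpl36 was 3812 at 24 hpf and 1891 at 12 hpf, a log2 change of 1.01. The 5 hpf signal of rpl13 was well below both. The gene rpl13 had 8703, 33223 and 37460.5 at 5, 12 and 24 hpf.

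Chaperone and stress genes gave 2 higher and 1 lower of 21 with a value, median log2 change -0.08, a median whose sign depends on the scaling. Hsp70l is inducible by heat and also expressed in the lens, nqo1 is a quinone reductase and hspa5 a chaperone of the endoplasmic reticulum. Signal of hsp70l was 255 at 24 hpf and 47 at 12 hpf, a log2 change of 2.44. For nqo1 it was 621 at 24 hpf, against 2156 at 12 hpf (log2 change -1.8). At 24 hpf hspa5 had 369, against 626 at 12 hpf (log2 change -0.76). Apoptosis regulators gave 2 higher and 0 lower of 18 with a value, median log2 change -0.13, with baxa a promoter and bcl2a an inhibitor of cell death. Signal of baxa was 216 at 24 hpf and 334 at 12 hpf, a log2 change of -0.63. For bcl2a it was 33.2 at 24 hpf, against 11.4 at 12 hpf (log2 change 1.54).

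For the glucocorticoid receptor pathway and circadian clock the count was 5 higher and 3 lower of 30 with a value, median log2 change 0.34. The receptor gene nr3c1 was measured by 7 probes. Signal of nr3c1 was 69.5 at 24 hpf and 48.2 at 12 hpf, a log2 change of 0.53 or below. Its feedback target fkbp5 was close to the limit, at 11.8 at 24 hpf and 12.6 at 12 hpf. Per1b, per1a and per2 are repressors of the circadian clock, and per2 responds to light. Signal of per1b was 189 at 24 hpf and 28.8 at 12 hpf, a log2 change of 2.71 or more. For per1a it was 146 at 24 hpf, against 152 at 12 hpf (log2 change -0.06). At 24 hpf per2 was not above the controls, against 30.3 at 12 hpf (at least 3.0-fold lower at 24 hpf). The gluconeogenic enzyme pck2 was lower. Signal of pck2 was 83.7 at 24 hpf and 359.5 at 12 hpf, a log2 change of -2.1 or below. The sources used here do not give the lighting.

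Outside the lists, the lowest change among genes with a proper symbol, measured at both stages and past 2-fold in the authors' processed signal was that of ptgdsb.1, a lipocalin of the prostaglandin D synthase family. Signal of ptgdsb.1 was 62.1 at 24 hpf and 852 at 12 hpf, a log2 change of -3.78. The calcium-binding gene s100a1 was brightest at 5 hpf. Signal of s100a1 was 30753, 4383 and 421 at 5, 12 and 24 hpf. Envelope genes of the egg had high signals at 5 hpf too. For zp3.1 the signals at 5, 12 and 24 hpf were 3699, 642 and 85.1. The gene zp3.2 had 1732, 456 and 55.6 at 5, 12 and 24 hpf. Signal of zp3a.2 was 459, 242 and 32.8 at 5, 12 and 24 hpf. The cathepsin ctsl.1, the Wnt receptor fzd8b and the zinc finger gene znfl1 followed. Signal of ctsl.1 was 63.3 at 24 hpf and 649 at 12 hpf, a log2 change of -3.36. For fzd8b it was 38.1 at 24 hpf, against 307 at 12 hpf (log2 change -3.01). At 24 hpf znfl1 had 106.9, against 863 at 12 hpf (log2 change -3.01). The G protein subunit gngt2a and the arrestin arr3b serve cone photoreceptors of the grown eye, and cd36 is a lipid scavenger receptor. Signal of gngt2a was 37.03 at 24 hpf and 359 at 12 hpf, a log2 change of -3.28. For arr3b it was 20.6 at 24 hpf, against 188 at 12 hpf (log2 change -3.19). At 24 hpf cd36 had 26.9, against 198 at 12 hpf (log2 change -2.88). The remaining genes by the same rule were calhm6 and ankrd31. Signal of calhm6 was 10.1 at 24 hpf and 97.5 at 12 hpf, a log2 change of -3.27. For ankrd31 it was 31.8 at 24 hpf, against 293 at 12 hpf (log2 change -3.21).

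Of genes above the controls at 12 hpf but not at 24 hpf, igfbp5a, a binding protein for insulin-like growth factors, had the largest change. At 24 hpf igfbp5a was not above the controls, against 1874 at 12 hpf (at least 186-fold lower at 24 hpf). It rests on 1 probe, which the array file names igfbp5b and whose accession the RefSeq table assigns to igfbp5a. Under the names in the file, igfbp5a refers to other probes and changed by 1.17. At 24 hpf hspbap1 was not above the controls, against 109.7 at 12 hpf (at least 10.9-fold lower at 24 hpf). At 24 hpf gdpgp1 was not above the controls, against 64.2 at 12 hpf (at least 6.35-fold lower at 24 hpf). The others by the rule were il17d, jac9, pcsk5a, ptgdsa, ccdc69 and rx3, lower by at least 4.495-fold for rx3 and by at least 6.25-fold for il17d.

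The same arrays carried RNA of cortisol-treated embryos in red, which is given here side by side and not as a second replicate, since spots and arrays are shared. The red channel was dim, with 95th percentiles of 290.5 at 24 hpf and 331 at 12 hpf, and 11982 genes had a value, of which 1416 were at least 2-fold higher at 24 hpf (11.8%) and 1107 lower (9.24%). Across 11793 genes with a value in both channels the log2 changes correlated with r = 0.81. Of 1627 genes higher in vehicle embryos and measurable in cortisol embryos, 1111 were also higher and 5 were lower. Of 1451 lower ones, 575 were also lower and 3 were higher. In red, a probe not above the controls at 24 hpf was set to 10.4, which cuts falls of dim genes short. For her11 the red change of -0.22 is such a limit. The count of 575 is therefore not read as falls missing in cortisol embryos. The medians of the lists, each over the genes with a value in that channel, had the same sign in 32 of 37 cases. Those gene sets differ, and over genes with a value in both channels only the yolk syncytial list differed in sign.

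By list, the contractile apparatus had a median of 4.56 in cortisol embryos over 39 genes, against 6.31 in vehicle embryos over the same genes. In red 21 of the 39 genes were above the controls at 24 hpf only and 10 others in part, so that 4.56 is largely a median of lower limits and the gap between the medians is not read as a smaller change. In the lens list 10 of 14 genes were above the controls at 24 hpf only in red. Pvalb2 changed by 7.83 or more in cortisol embryos and by 10.88 in vehicle embryos, and hbae3 by 6.85 in cortisol embryos and 6.27 in vehicle embryos. Pvalb2 was not above the controls in red at 12 hpf. For the yolk syncytial list the signs differed, with 0.46 in cortisol embryos and -0.38 in vehicle embryos over 23 genes. Whether any change differed between the channels was not tested.

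**Figure D5:**
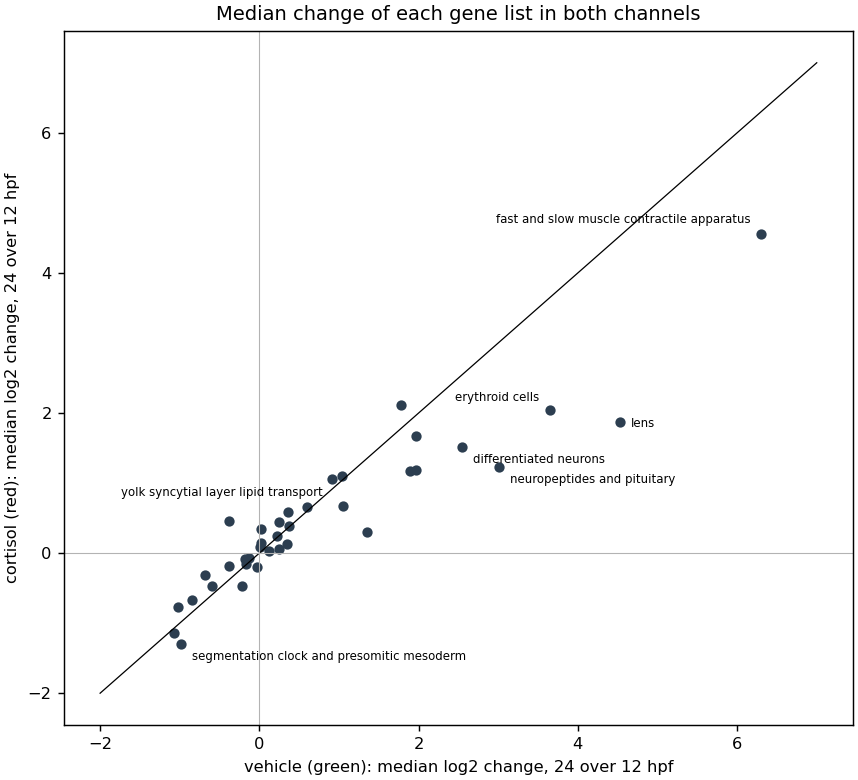
Median log2 change from 12 to 24 hpf of each of 37 gene lists in cortisol embryos (red channel, vertical axis) and in vehicle embryos (green channel, horizontal axis), over genes with a value in both; the line marks equal change. The lists with a median above 2 in vehicle embryos lie below the line, where many red values are lower limits, and the yolk syncytial list lies above 0 in cortisol embryos and below 0 in vehicle embryos.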

How the data were processed

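Vehicle (green) and cortisol (red) RNA of zebrafish embryos was measured on 3 Agilent 2-colour arrays at 5, 12 and 24 hpf. The authors deposited median spot and local background intensity per channel, from Agilent Feature Extraction per the submitters' processing notes, of a version that these sources do not give. The deposited processed green intensity, background-subtracted and dye-normalized per the file headers, served as an alternative. Local background was subtracted, spots of a probe were averaged, and probes starting with A_15_ were quantile-normalized over the 24 and 12 hpf arrays; 5 hpf signals were mapped to the same quantiles. Nothing marked saturated spots, so none was removed. In red, 9 spots whose local background exceeded 2 times the median were dropped.

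Of 43603 probes, 25258 were named by accession, 2766 by symbol and 1682 by synonym through RefSeq's GRCz12tu table, and 13897 kept the file's name. The 153 negative control spots gave thresholds of 8.89 at 24 hpf and 8.44 at 12 hpf. With 1 sample a stage, genes are called by size alone, at 2-fold, and precision is limited by the number of arrays. The text names the 15 largest changes each way among genes with a proper symbol measured at both stages and past 2-fold in the processed signal, the 10 largest limits each way, and of each list the first 4 genes and the 4 others that changed most; slc1a3b, crygm2d1, and1, dnah5 and dnah9 of these have no value, and a few genes are not reported here. Other names are said to be chosen after their values. Members and lists were chosen with earlier results of these data known. The code was tested on simulated data. Computations used Python 3.11.15, pandas 2.3.3 and numpy 2.4.6, and limma 3.58.1 in R 4.3.3 for normexp with an offset of 50. Promoter sequences were not used here.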

Additional observations from a re-analysis of the deposited data

How the results depend on the processing

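Under other settings the count of genes at least 2-fold higher at 24 hpf (2580) became 4274 with 75th percentile scaling, 4516 with median-centred ratios, 1152 with normexp, 1240 without background subtraction, 4330 without a filter on dim probes and 1510 at 3-fold. The count lower (2228) became 629 with normexp, 684 without subtraction, 3836 in the authors' processed signal, 4413 without the filter and 593 at 3-fold. Of the 2580 genes 2543 were also higher with 75th percentile scaling, and of the 2228 genes 1629 were also lower. These 11 counts moved by over 1.5 times and 17 did not; the cause was not tested. List medians moved by more than the spread between probes in 48 of 481 cases, and none whose median exceeded that spread changed sign. Named genes moved in 694 of 4015 cases and 5 changed sign: igfbp5a at 1.17 under the file's names, agr2 at -1.18 in the processed signal, and ncf1 at -0.15, gnat1 at -0.73 and nr1d2a at -0.28 without the filter. Medians of 3 lists (proneural factors, gut with liver and pancreas, chaperones) changed sign with the scaling, and of 8 lists in all under any setting the others were heart (-0.51) and pineal (-0.20) with probes measured at both stages, white blood cells (-0.07) without the filter, pronephros (-0.29) over the median signal and epidermis (0.02) with the brightest probe. No paired analysis was possible because each stage holds 1 sample. Leaving out a replicate and the planned promoter search were not run. Folds of genes near the controls at 12 hpf are limited by signal over background.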

Other observations

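Gene families were also read directly from symbols, with genes grouped by the letters at the start of the symbol after the values had been seen. Of 168 such families with at least 10 genes, the gamma M crystallins (crygm) had the highest median log2 change, 5.26, with 17 of 21 genes at least 2-fold higher at 24 hpf and 0 lower. Small heat shock proteins (hspb) came next with a median of 1.96, 7 of 10 higher and 1 lower, hspb1 being the lower one. Collagens (col) had a median of 1.85, with 16 of 25 higher and 0 lower. Protocadherins (pcdh), adhesion proteins of neurons, had a median of 1.33, with 18 of 31 higher and 1 lower. Water channels (aqp) had a median of 1.13 with 7 of 12 higher, and claudins (cldn), which seal tight junctions, 0.83 with 11 of 24 higher and 1 lower. POU factors (pou), many of them neural, had 7 of 12 higher and 0 lower with a median of 1.28.

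At the other end, egg envelope genes (zp) had the lowest median, -2.0, with 14 of 18 genes at least 2-fold lower at 24 hpf and 1 higher. DEAD-box RNA helicases (ddx) had a median of -1.14, with 18 of 30 lower and 0 higher. The replicative helicase family (mcm) had a median of -1.13 with 6 of 10 lower. Transfer RNA methyltransferases (trmt) had a median of -1.09 with 7 of 13 lower, and nuclear pore proteins (nup) -0.88 with 8 of 18 lower. In trmt, nup and mcm no gene was at least 2-fold higher. Family members can share sequence, and the part of shared probe signal in these medians was not tested.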
